A study of Mus musculus with 11 samples.

Results

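DNA repair genes that modify the expansion of CAG repeats are described here in the nucleus accumbens shell of the mouse. The set holds 8 of the 52550 genes in the count table: the MutS genes Msh3 and Msh6, the MutL genes Mlh3, Pms1 and Pms2, the nuclease gene Fan1, the ligase gene Lig1 and the ribonucleotide reductase gene Rrm2b. They were chosen by name as mismatch repair genes and related modifiers of CAG repeat expansion, and each symbol matched 1 identifier of GENCODE M21. RNA with a poly(A) tail came from tissue punched out of frozen sections 300 µm thick, taken at 8 weeks of age from mice of mixed CBA/C57BL6J/129svEmx stock. The series asks how lower signalling through Rarb, a retinoic acid receptor, changes transcription beside a mutation that causes Huntington disease, and its design text writes a genotype by the R6/1 transgene and the Rarβ alleles. R6/1 is a transgene for the start of human huntingtin, with a long CAG repeat and the human promoter. The labels give each of the 11 libraries an animal code but not its genotype. No library was therefore put in a group, genotypes were not compared, and each library's own value is given. Whether a library comes from a transgenic mouse is thus not known here, and reads of the genes below cannot be set against repeat length.

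The CAG repeat of huntingtin can lengthen in neurons during life, and the projection neurons of the striatum are known for large somatic gains. MutS proteins recognise looped or mispaired DNA, with Msh3 serving for larger loops and Msh6 for mispairs and small loops. MutL proteins are recruited next, and complexes with Pms2 or Mlh3 can nick DNA. Fan1 is a nuclease of crosslink repair, and loss of Fan1 raises repeat expansion in mouse models, whereas loss of Msh3 or Mlh3 lowers it. Human variants near FAN1, MSH3, PMS1, PMS2, LIG1 and RRM2B are associated with the age at onset of Huntington disease. The strains mixed here are known to differ in sequence at Msh3.

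Library totals ran from 24840981 (m61) to 48825783 counts (m49), with a median of 36252983. All 8 genes had reads in every library and all passed the filter on low counts, at least 1 CPM (the usual count unit relative to library size, here on scaled sizes) in 3 or more libraries with a median count no lower than 10, which 15373 genes passed. The scores of 14 projection neuron genes fell into separate clusters, from 0.56 to 0.80 in m57, m44, m61, m89 and m83 and from −0.47 to −0.19 in the other libraries. These are the libraries whose codes run from 9 upward, against codes up to 7, and what the codes stand for is not given. Of the 16 dividing-cell markers all passed the filter, and their summed level was lowest in m57 (13.9 CPM) and highest in m47 (113 CPM). The 11 myelin markers summed to between 2048 and 5124 CPM, and the 14 projection neuron markers to between 2926 and 6938 CPM, so the defining genes of striatum were present. The 6 cortical neuron markers were present too, at 810 to 2402 CPM summed. A bulk sample cannot tell fewer cells of a type apart from less RNA per cell.

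Msh3 (ENSMUSG00000014850, chromosome 13, 92211872 to 92355003, minus strand, mm10) was the steadiest of the set. Its level was 36.6 CPM in m73, 34.0 in m61, 33.5 in m44, 33.0 in m115, 32.7 in m57 and 31.6 in m74 and m101. It was 31.4 CPM in m47, 30.5 in m49, 28.6 in m83 and 27.9 in m89. The highest library, m73, was thus 1.31 times the lowest, m89. The spread of a gene is given as its biological coefficient of variation over the 11 libraries, which leaves out counting noise and cannot separate genotype from animal, dissection or library preparation. For Msh3 the spread was 0.0715, and 1.54% of the genes passing the filter had a lower one. The counts behind these values were 766 to 1549 reads.

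Msh6 (ENSMUSG00000005370, chromosome 17, 87975062 to 87990892, plus strand) lay between 17.1 CPM in m101 and 24.7 CPM in m47, with a median of 22.4 CPM and a spread of 0.130. Msh6 was between 22.4 and 24.7 CPM in m115, m49, m47, m74, m57 and m89, and between 17.1 and 19.8 CPM in the other 5 libraries. The order of Msh3 and Msh6 depends on the length used. Per kilobase of all exons, counting every annotated exon base once, Msh3 was 0.545 times Msh6 (median) and below it in every library, whereas per kilobase of the longest transcript it was 1.41 times Msh6 and above it in every library. Msh3 has 15 annotated transcripts with 11254 exon bases in all, against 4254 in the longest, so the deposited gene counts do not settle which MutS gene had more transcripts.

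**Figure D1:**
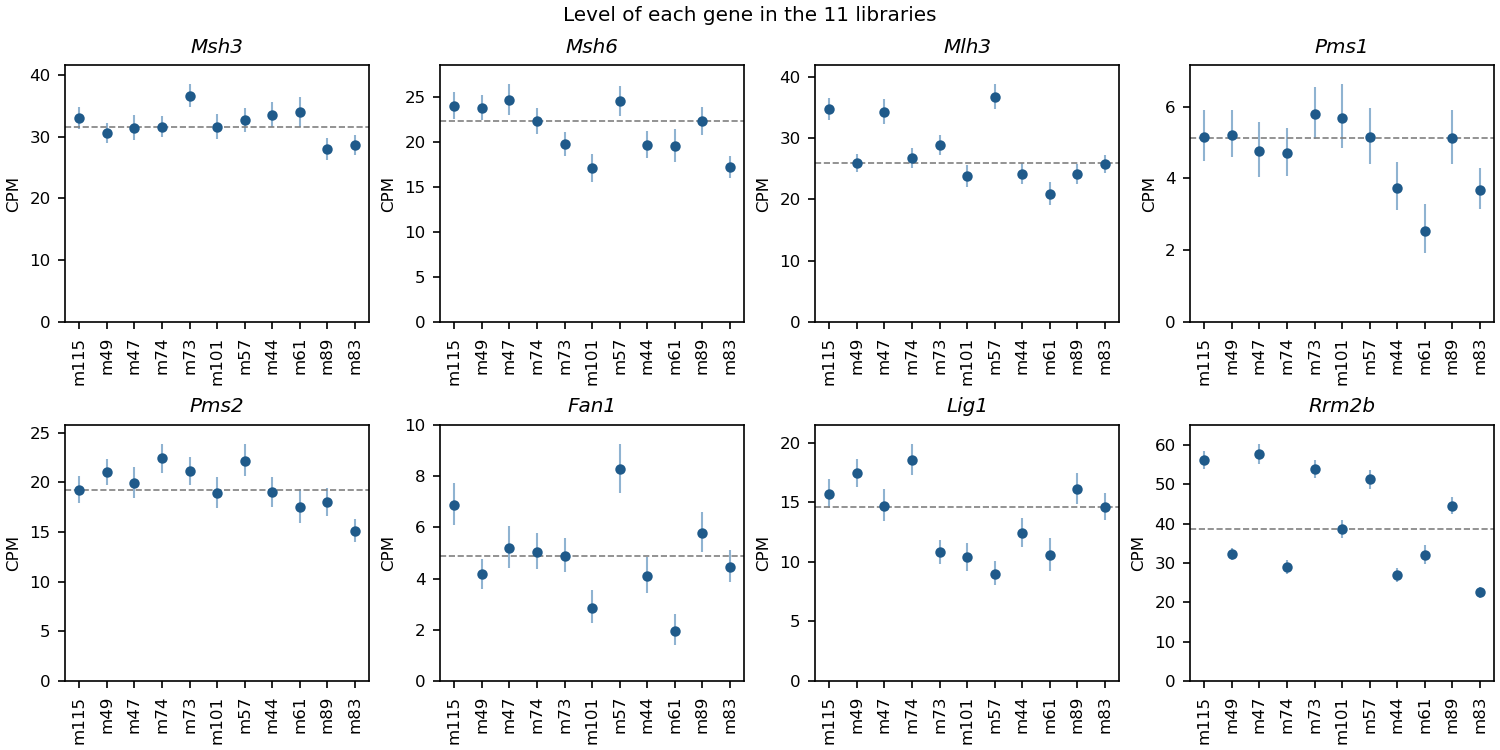
Level of each gene in CPM (vertical axis, from 0) in each of the 11 libraries (horizontal axis, in the order of the library codes). Bars are exact 95% Poisson intervals of the count and cover counting error only, and dashed lines are medians. Msh3 stays between 27.9 and 36.6 CPM, while Fan1 is lowest in m61 (1.95 CPM) and highest in m57 (8.26 CPM).

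Among the MutL genes, Pms2 (ENSMUSG00000079109, chromosome 5, 143909964 to 143933968, plus strand) had a median of 19.2 CPM, from 15.1 CPM in m83 to 22.4 CPM in m74. Its spread of 0.108 had 9.87% of genes below it, and it was 0.0744 without m83. Mlh3 (ENSMUSG00000021245, chromosome 12, 85234520 to 85270599, minus strand) had a median of 25.9 CPM. Mlh3 was high in m57 (36.8 CPM), m115 (34.8 CPM) and m47 (34.3 CPM), and lay between 20.9 CPM (m61) and 28.9 CPM (m73) in the other libraries. Pms1 (ENSMUSG00000026098, chromosome 1, 53189187 to 53297018, minus strand) was low, with a median of 5.12 CPM and 57 to 253 reads per library. Pms1 was lowest in m61, at 2.53 CPM (exact 95% Poisson interval 1.91 to 3.27), and highest in m73, at 5.79 CPM (5.09 to 6.56). Its spread of 0.205 became 0.130 without m61.

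Mlh3 exceeded Pms2 per length in every library by either length, by 1.44 times (median) per kilobase of all exons and by 1.51 times per kilobase of the longest transcript.

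Fan1 (ENSMUSG00000033458, chromosome 7, 64346758 to 64374095, minus strand) was scarce and had the largest spread of the 8 genes, 0.360, above that of 83.8% of genes. The level was 8.26 CPM in m57, 6.88 in m115, 5.78 in m89, 5.19 in m47, 5.04 in m74 and 4.89 in m73. In the other libraries it was 4.45 CPM in m83, 4.17 in m49, 4.10 in m44, 2.86 in m101 and 1.95 in m61. The lowest value rests on 44 reads and the highest on 286, and their exact 95% Poisson intervals of 1.42 to 2.62 CPM and 7.33 to 9.28 CPM are far apart. Without m61 the spread was 0.275. Pms1 and Mlh3 were also at their lowest in m61.

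Lig1 (ENSMUSG00000056394, chromosome 7, 13277283 to 13311433, plus strand) codes for the ligase that joins fragments of the lagging strand and seals repaired gaps. Its level was 18.6 CPM in m74, 17.4 in m49, 16.1 in m89, 15.7 in m115, 14.7 in m47 and 14.6 in m83. It was 12.4 CPM in m44, 10.8 in m73, 10.6 in m61, 10.4 in m101 and 9.01 in m57. The spread was 0.233, near the median of 0.201 over all genes passing the filter. Lig3, the ligase gene of base excision and mitochondrial repair, was the higher of the pair per kilobase of all exons in most libraries, and Lig1 exceeded it in 2 of 11.

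Rrm2b (ENSMUSG00000022292, chromosome 15, 37923952 to 37961318, minus strand) codes for the p53-inducible small subunit of ribonucleotide reductase, which supplies deoxynucleotides outside the dividing cell. It had the highest median of the set in CPM, 38.6, with 724 to 2283 reads per library, though Msh3 had more reads than Rrm2b in m74, m44, m61 and m83. Rrm2b was at 56.1 CPM in m115, 57.7 in m47, 53.9 in m73, 51.3 in m57 and 44.5 in m89. In m101, m49, m61, m74, m44 and m83 it lay lower, between 38.6 CPM (m101) and 22.5 CPM (m83). The spread was 0.321, above that of 78.5% of genes. Per kilobase of all exons Rrm2b exceeded Rrm1, the large subunit gene, in all 11 libraries, with a median ratio of 2.52 (1.47 to 3.75). It also exceeded Rrm2, the small subunit gene of dividing cells, in all 11, with a median ratio of 2.19 and the largest ratio of 9.98 in m57. The size of that ratio depends on the length used, since per kilobase of the longest transcript its median was 3.47 and its value in m57 was 15.8.

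**Figure D2:**
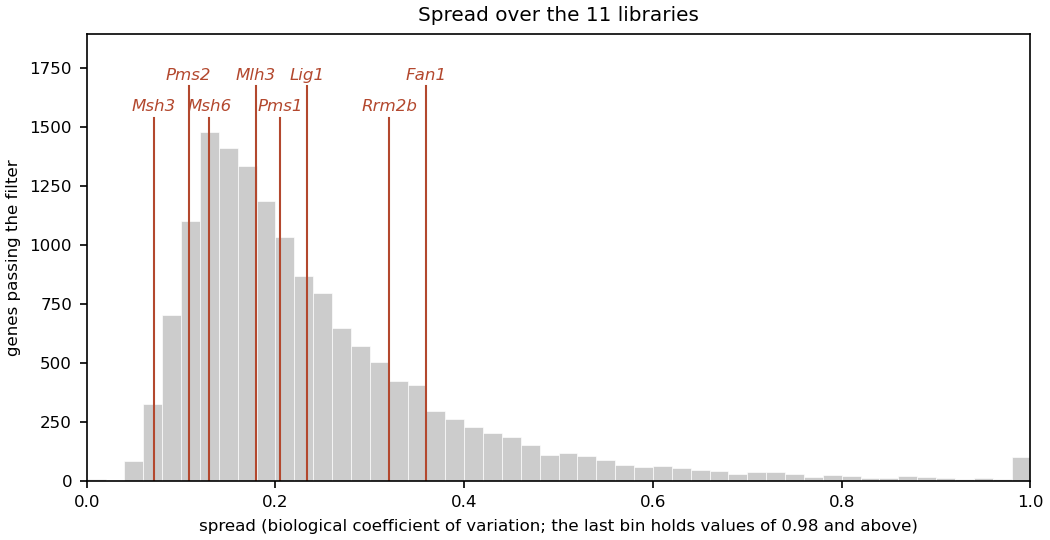
Histogram of the spread (biological coefficient of variation over 11 libraries, horizontal axis) of the 15373 genes passing the filter (vertical axis, genes per bin), with the 8 repair genes marked by lines. Msh3 sits at the low end at 0.0715, Fan1 is farthest to the right at 0.360, and 4 genes lie on each side of the median of 0.201.

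By level per kilobase of all exons, in CPM per kilobase, the order was Msh6 (median 5.14), Rrm2b (4.23), Mlh3 (3.43), Lig1 (3.43), Msh3 (2.81), Pms2 (2.37), Fan1 (0.806) and Pms1 (0.678). Neighbours from Msh6 to Msh3 overlapped and kept their places in 6 to 8 of 11 libraries. Msh3 was above Pms2 and Pms2 above Fan1 in all 11, the second with no overlap of ranges. The ranges of Fan1 and Pms1 overlapped, with Fan1 above in 8 libraries, and their difference was not tested. On this scale Msh6 exceeded 50.8% of the genes passing the filter, and Fan1 and Pms1 exceeded 16.2% and 13.8%. With the longest transcript as length only 1 of the 8 genes, Pms2, kept its rank, while Fan1 and Pms1 stayed in the last 2 places in the other order.

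Likeness between the genes varied from pair to pair. Over the 28 pairs Pearson's r of log2(CPM + 0.5) ran from −0.54 (Msh3 and Lig1) to 0.82 (Mlh3 and Fan1), with a median of 0.42 and 21 pairs above 0. With all other genes the median r of each member lay between −0.02 (Rrm2b) and 0.10 (Fan1). The shares of all genes with r above 0, or with an unadjusted p under 0.05, were not computed. Nothing particular to the set is therefore read from the counts of pairs. The closest pair was Mlh3 and Fan1, with r = 0.82 (permutation p = 0.00139, adjusted p = 0.0766 over the 15372 other genes) and rho = 0.79 (permutation p = 0.00582, adjusted p = 0.186). Without m57 and m115, the libraries farthest from the median of Mlh3, r was 0.67. Each pair was adjusted over the correlations of only 1 of its genes, and for Mlh3 and Fan1 over those of Mlh3. Adjusted that way no pair passed 0.05, and 5 had an unadjusted permutation p under 0.05 for r. The adjusted p depends on which gene is taken. Over the correlations of Fan1, 1075 of 15372 genes passed (6.99%), and with so many passing a permutation p of 0.00139 falls under the threshold. That no pair passed thus holds only for the gene taken first in each pair. The adjusted p of Mlh3 and Fan1 over the correlations of Fan1 is not given. Msh3 and Msh6, the MutS genes, had r = −0.01 (permutation p = 0.989, adjusted p = 1.000 to 3 decimals) and rho = −0.16 (permutation p = 0.634), with r = 0.25 without m73 and m89.

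**Figure D3:**
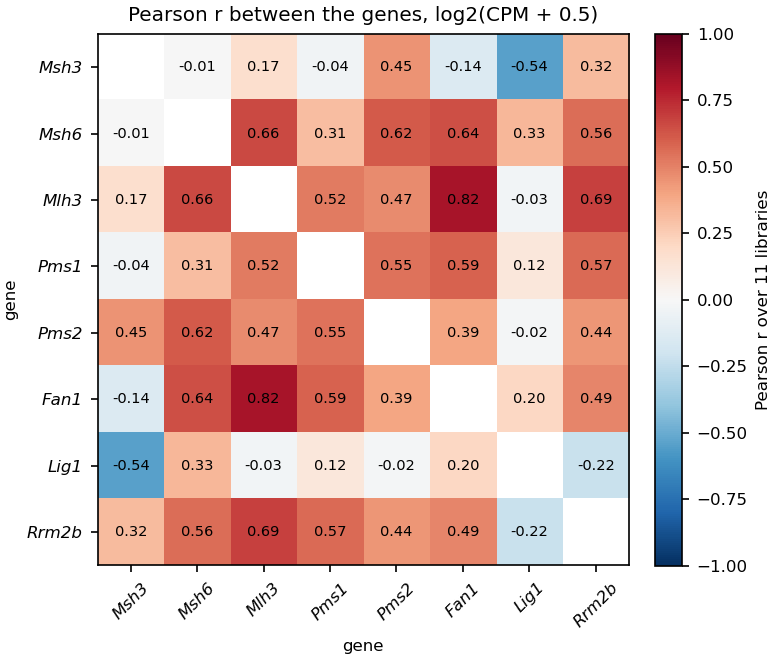
Pearson's r of log2(CPM + 0.5) over 11 libraries for each pair of the 8 genes (both axes list the genes, and the colour scale runs from −1 to 1). Mlh3 and Fan1 have the highest value, 0.82, and Msh3 and Lig1 the lowest, −0.54.

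Long and short transcripts shifted against each other between libraries. It is measured as the median log2 deviation of the genes in the longest 10% (longest transcript of at least 6816 bases) minus that of the shortest 10%, and the 8 genes were left out of it. The measure ran from −0.64 in m61, −0.48 in m74 and −0.48 in m83 to 0.42 in m47, 0.50 in m115 and 0.50 in m57. Of all genes tested, 32.4% passed an adjusted p of 0.05 along it in edgeR's quasi-likelihood test, 17.7% rising and 14.7% falling. The genes tested include the long and short ones that define the measure, so this background is partly built in. Of the repair genes 3 of 8 passed (37.5%), all rising, against those 32.4% in either direction and 17.7% rising. With so few genes nothing particular to the set is read from that share.

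Rrm2b rose by 0.40 on the log2 scale per SD of the measure (SE 0.07, edgeR adjusted p = 0.00125), Fan1 by 0.40 (SE 0.11, adjusted p = 0.0155) and Mlh3 by 0.21 (SE 0.05, adjusted p = 0.00889). For Rrm2b r was 0.85 (permutation adjusted p = 0.0139) and rho 0.76 (adjusted p = 0.0419), with r = 0.80 without m57 and m115. For Fan1 r was 0.78 (permutation adjusted p = 0.0129) and rho 0.79 (adjusted p = 0.0302), and for Mlh3 r was 0.80 (adjusted p = 0.0172) and rho 0.71 (adjusted p = 0.0646). Without m57 and m115 r was 0.65 for Fan1 and 0.67 for Mlh3. Fan1 no longer passed without m57 (edgeR adjusted p = 0.0564) or without m61 (adjusted p = 0.0541).

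Within the 6 libraries of codes up to 7, r along the measure was 0.93 for Rrm2b, 0.88 for Mlh3 and 0.63 for Fan1, given as values with no test. The 5 libraries of codes from 9 fall short of the minimum of 6 used here for a correlation. With the code division as a term in the fit the same count of 3 repair genes passed. The other slopes did not pass: 0.13 for Msh6, 0.19 for Pms1, 0.06 for Pms2, 0.02 for Msh3 and −0.03 for Lig1, with edgeR adjusted p between 0.0934 and 0.845. For Msh6 the rank correlation passed (rho = 0.75, permutation adjusted p = 0.0424), while r did not (0.66, adjusted p = 0.0808, and 0.52 without m57 and m115). None of the 8 genes is among the longest 10%. Rrm2b has a longest transcript of 4561 bases, longer than 71.4% of genes passing the filter, and that of Fan1, of 3460 bases, is longer than 51.7%. Pms2, at 6157 bases the longest of the set, is longer than 86.5% and did not pass.

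**Figure D4:**
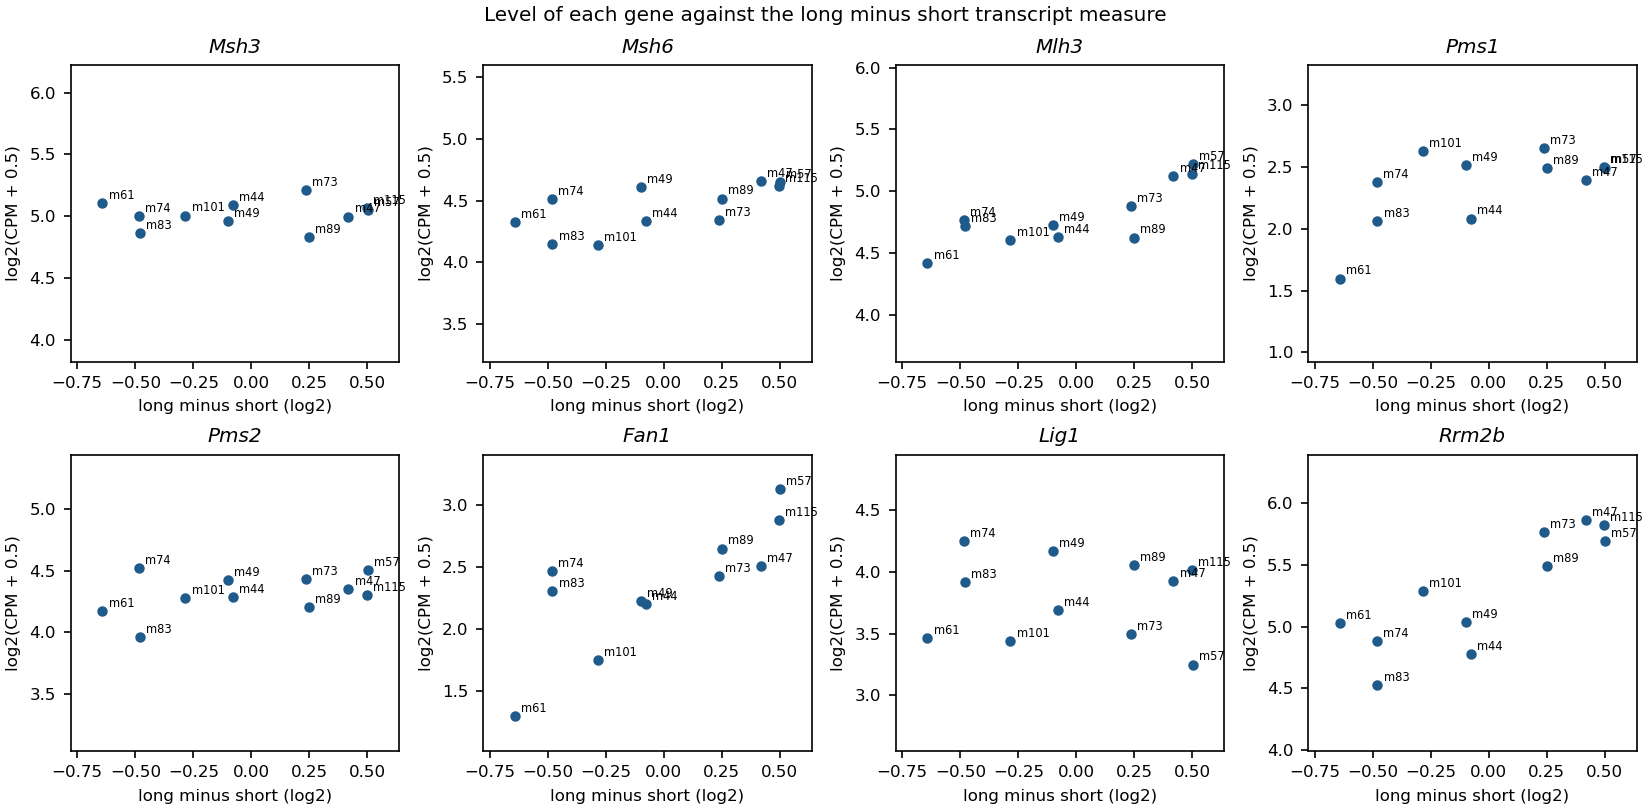
Level as log2(CPM + 0.5) (vertical axes, each spanning the same range) against the long minus short transcript measure in log2 units (horizontal axes) for the 8 genes, with 1 point per library. Rrm2b, Fan1 and Mlh3 climb from left to right (r = 0.85, 0.78 and 0.80), while Msh3 lies flat (r = 0.13).

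Lig1 and Msh6 are known to be transcribed more in cells that replicate DNA, and E2F factors drive many such genes. For that reason the promoter windows of the set (RefSeq, GRCm38.p6, 250 bases before to 50 after a transcript start, available for 7 of the 8 genes) were searched on both strands for 4 spellings of the E2F site, TTTCCCGC, TTTCGCGC, TTTGCCGC and TTTGGCGC. Matches lay in the windows of 3 genes, Msh3, Msh6 and Lig1 (in 1 of its 3 windows), and 2.6% of all genes with a window have one. Each stretch below is 30 bases, in the direction of its gene, with the matching letters in capitals:
Msh3, chr13:92355185-92355214, minus strand: gccgtcaagTTTGGCGCGAAAtcgcagccc
Msh6, chr17:87975054-87975083, plus strand: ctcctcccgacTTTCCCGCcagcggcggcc
Lig1, chr7:13278841-13278870, plus strand: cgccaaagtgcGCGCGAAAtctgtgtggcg

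In Msh3 the capitals hold 2 matches that overlap, TTTGGCGC and, on the other strand, TTTCGCGC, at 202 to 191 bases before the start. In Msh6 the match lies 16 to 23 bases after the start. In Lig1 it is read on the other strand, 27 to 34 bases after the transcript start of its window, 1 of 3. The stretch begins at 13278841, so that start lies inside the gene and not at its first base, 13277283. A match shows letters and not binding.

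Along a score of 16 dividing-cell genes (the mean log2 deviation of genes such as Top2a and Mki67, none of them in the set), none of the 8 repair genes passed in edgeR, against 0.169% of all genes, and 1 had an unadjusted p under 0.05. DESeq2's Wald test also gave 0. The 1 gene was Lig1, with a slope of 0.26 on the log2 scale per SD of the score (SE 0.09, edgeR p = 0.00797, adjusted p = 0.816). For Lig1 r was 0.75 (permutation p = 0.00851, adjusted p = 0.861) and rho was 0.66 (permutation p = 0.0303, adjusted p = 1.0), with r = 0.70 without m57 and m47 and 0.65 within the 6 libraries of codes up to 7. Over the alternatives its adjusted p lay between 0.275 (DESeq2) and 0.999994. The slopes were 0.07 for Msh6 (SE 0.07) and −0.05 for Msh3 (SE 0.05), and the differences between these slopes were not tested. Msh6 was among its highest in m57, at 24.6 CPM, where the score was lowest at −1.18, and its slope without m57 was 0.17 (edgeR adjusted p = 0.758). For Msh6 r with the score was 0.38 over the 11 libraries (permutation p = 0.245, adjusted p = 1.000 to 3 decimals, rho = 0.37, permutation p = 0.260), 0.71 without m57 and m47, and 0.90 within the 6 libraries of codes up to 7. The values within these 6 libraries are given with no test. There r was 0.73 for Mlh3, 0.61 for Fan1, 0.30 for Rrm2b, −0.16 for Pms2, −0.46 for Msh3 and −0.73 for Pms1, so high values were not confined to Lig1 and Msh6. Rrm2 passed, with a slope of 0.88 (SE 0.13, edgeR adjusted p = 0.00873), and was lowest in m57 (1.56 CPM) and highest in m89 (8.68 CPM), and its window had no match. The background of 0.169% is over genes that include the 16 behind the score, so it is partly built in.

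**Figure D5:**
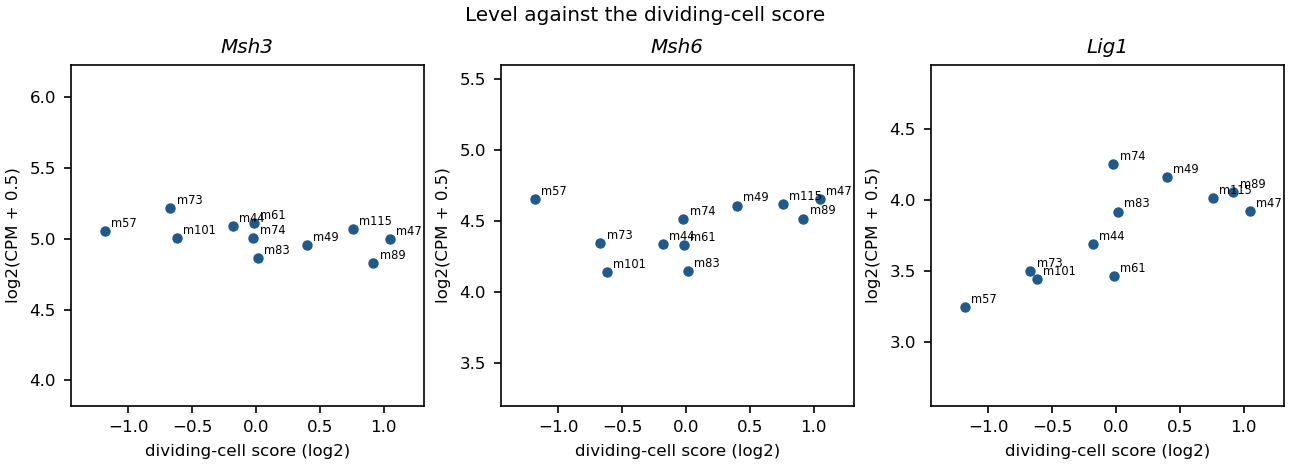
Level as log2(CPM + 0.5) (vertical axes, each spanning the same range) against the dividing-cell score in log2 units (horizontal axes) for Msh3, Msh6 and Lig1, with 1 point per library. Lig1 is lowest in m57, where the score is −1.18, and is the 1 gene of the 3 with an unadjusted p under 0.05.

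Along the level of Rarb, which was lowest in m74 (49.8 CPM) and highest in m44 (101.2 CPM), no repair gene passed in edgeR or in DESeq2, and none had an unadjusted p under 0.05 in edgeR. The edgeR slopes ran from −0.12 (Lig1) to 0.16 (Fan1), with a lowest adjusted p of 0.650, and 0.0195% of all genes passed. Along the score of 11 myelin genes none passed by either tool, against 0.26% of all genes in edgeR. Rrm2b had the 1 unadjusted p under 0.05, with a slope of −0.26 (SE 0.11, edgeR p = 0.0424, adjusted p = 0.398). That slope was −0.11 with the transcript length measure as a term and −0.42 with the code division as a term. The genes tested include the 11 myelin genes and Rarb itself, so the background shares along both measures are partly built in. Relations to the projection neuron score were not computed, because its values fell into separate clusters that follow the library codes.

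The wider repair and nucleotide genes, 72 in 7 lists, all passed the filter. Along the transcript length measure 12 rose (16.7%) and 8 fell (11.1%), near the background of 17.7% and 14.7%. Along the dividing-cell score 1 rose, Rrm2, and along the myelin score and the Rarb level 0 of 72 passed in edgeR. Of 17 partners and later steps of mismatch repair, which include the clamp Pcna and the nuclease Exo1, none rose and 2 fell, Rfc2 (slope −0.15) and Rpa2 (−0.16). Of 12 genes for partners of Fan1 and crosslink repair, Fancm rose (slope 0.55, SE 0.11, edgeR adjusted p = 0.00167) and Ercc1 fell (−0.20). In base excision, Lig3 rose (0.30) and Apex1 fell (−0.21), and of the nucleotide supply genes Dck rose (0.28) and Dut fell (−0.19). A list of 8 genes held Htt, the mouse huntingtin gene itself, with other reported modifiers of onset. Of these 8 genes 5 rose, among them Htt (0.24), Ccdc82 (0.38), Gpr161 (0.25) and Ercc6 (0.37). Of p53 and its targets Sesn1 rose (0.16) and Bax fell (−0.24), and of 7 neighbours 3 rose, among them Mtmr10 and Fbxo11, while Acyp1 and Aimp2 fell. The median slope of the list of other modifiers, with Htt included, was 0.24, against 0.01 over all genes tested. Of the genes named here, Htt, Gpr161, Ercc6 and Fancm are among the longest 10% behind the measure. Apex1, Bax, Acyp1 and Aimp2 are among its shortest 10%. Their slopes, and the counts and median that include them, are therefore partly built in.

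Spread differed within these lists. The 17 mismatch repair partners had a median spread of 0.145, from 0.0859 in Rpa1, part of the protein that coats single strands, to 0.372 in Exo1, which had a median of 1.25 CPM. Pcna was steady at 15.4 to 22.8 CPM, with a spread of 0.120. Fancd2, a partner of Fan1 at stalled forks, ran from 5.69 to 13.5 CPM, with a spread of 0.250. The nucleotide supply list ran from Tk2, the mitochondrial thymidine kinase gene (0.0897), to Tk1, its counterpart in dividing cells (0.978). Cdkn1a, the p53 target that stops the cell cycle, was lowest in m73 (5.95 CPM) and highest in m61 (18.5 CPM). Rrm2b, another p53 target, had r = −0.51 with Cdkn1a (permutation p = 0.106, adjusted p = 0.225) and rho = −0.61 (permutation p = 0.0515, adjusted p = 0.134), with r = −0.29 without m83 and m47.

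Neighbours were set beside the genes because several share a promoter region or overlap. Ormdl1 starts 76 bases from Pms1 and had r = 0.32 with it (permutation p = 0.335, adjusted p = 0.537, rho = 0.41, permutation p = 0.215), and r was 0.31 without m61 and m83. Aimp2 starts 116 bases from Pms2 and had r = −0.14 (permutation p = 0.689, adjusted p = 0.921, rho = −0.10, permutation p = 0.777), and r was −0.33 without m83 and m74. Mtmr10, which ends 5951 bases from the end of Fan1, had r = 0.86 with it (permutation adjusted p = 0.0262) and rho = 0.88 (adjusted p = 0.0797), with r = 0.75 without m61 and m57. Mtmr10 also rose along the transcript length measure (slope 0.17), and the part of that measure in this relation was not tested.

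Exons of other genes overlapped 0.782% (Fbxo11 on Msh6) to 8.04% (Gm49085, antisense to Rrm2b) of the exon bases of Msh3, Msh6, Pms1, Pms2, Lig1 and Rrm2b. Zswim9 shares 5.79% of the exon bases of Lig1, on the other strand, and Gm42421 shares 4.85% of those of Pms2 on the same strand. The sources used here do not give the strand setting of the counting, so a part of these counts is uncertain. Mlh3 and Fan1 share no exon base with another gene.

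The genes most like each member were taken as the 3 with the highest r over the 11 libraries. For Fan1 they were Rai1 (0.98), Clmn (0.96) and Klf12 (0.96), and 6.99% of all genes passed a permutation adjusted p of 0.05 with Fan1. For Rrm2b they were Appbp2 (0.98), Dhx36 (0.98) and Avl9 (0.98), and 19% of genes passed. With the other 6 members no gene passed. For Lig1 the closest were Mfap2 (0.96), Pold1 (0.94), the catalytic subunit gene of a replicative polymerase, and Mcm7 (0.91), a subunit gene of the replicative helicase. Their permutation p for r were 3e-05, 7e-05 and 1e-04, and their adjusted p lay at 0.461, 0.512 and 0.512. For Msh6 they were Tns3 (0.94), Siah3 (0.94) and Pcdhac2 (0.93), and for Mlh3 they were Mfsd1 (0.94), Plxnc1 (0.94) and Atp6v0e (0.93). For Pms1 they were Cep162 (0.97), Gfpt2 (0.95) and Zfp410 (0.94), for Pms2 they were Mia3 (0.94), Vps36 (0.87) and Snrk (0.86), and for Msh3 they were Hspa1a (0.90), Ranbp3l (0.89) and Tbx18 (0.89). Without the 2 libraries farthest from each member's median, these r lay between 0.67 (Snrk with Pms2) and 0.98 (Dhx36 with Rrm2b). Hspa1a has a near-identical copy, so its counts are uncertain. Pold1 and Mcm7 were picked by their r with Lig1. Of the genes set beside Lig1 as partners, r was 0.24 for Pcna (permutation p = 0.465), 0.25 for Fen1 (permutation p = 0.452) and 0.54 for Rrm2 (permutation p = 0.0861). Each had a permutation adjusted p of 0.997, and without m57 and m101 r was 0.09, 0.01 and 0.22.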

How the data were processed

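The values deposited by the authors are raw gene counts, with no normalization. The submitters' processing notes name HTSeq 0.6.1, TopHat2 2.0.14, Bowtie2 2.1.0, bcl2fastq 2.17.1.14 and the mm10 build, but neither a strand setting nor an annotation release. Per the labels' protocols, libraries were made from 200 ng of RNA with a stranded kit and 12 PCR cycles. Of 52550 identifiers 52403 were found in GENCODE M21, from which names, coordinates and lengths were taken.

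CPM used library sizes with edgeR's TMM scaling (edgeR 4.0.16, R 4.3.3, factors 0.908 to 1.06), and 3 counts equalled 0.0619 to 0.133 CPM. Slopes came from edgeR's quasi-likelihood test over 15373 genes, with the measure scaled to an SD of 1 and Benjamini-Hochberg adjustment over all of them. Spread was edgeR's dispersion with an intercept only and no sharing between genes. Pearson's r and Spearman's rho of log2(CPM + 0.5) had two-sided p from 100000 permutations, adjusted over all genes, where the smallest p they can give is 1e-05. Separate clusters means a largest gap above 0.5 of the range, leaving 2 or more libraries on either side. Python 3.11.15, numpy 2.4.6, pandas 2.3.3, scipy 1.17.1, matplotlib 3.10.9 and DESeq2 1.42.0 were also used, and the slope and spread steps were tested on simulated data. Poisson intervals cover counting error only. PCR copies of a fragment are counted as reads, so the intervals can be too narrow even for that error.

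The design names 12 samples, of which the submitters excluded 1 after quality control, and 11 libraries are in the table. No pair of libraries agreed within counting noise (lowest chi-square per gene 16.0), and no labelled batch was found. The members, lists and measures were chosen with earlier results of these data known. Genes named are the members, their partners and neighbours, the pathway genes that passed along the transcript length measure, and the 3 genes most like each member. Rpa1, Tk1, Tk2, Cdkn1a, Fen1, Rrm1 and Rrm2 were named after their values were seen. Some partner and neighbour genes are not reported here.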

Additional observations from a re-analysis of the deposited data

How the results depend on the processing

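The median levels of the 8 genes stayed within 1 SD of their CPM over the libraries under unscaled totals, DESeq2 size factors and with each library left out. Along the transcript length measure the count of repair genes that passed was 3 under unscaled totals, DESeq2 size factors, no filter, DESeq2's Wald test, a pseudocount of 2 in the measure and the library code term. With each library left out the count was 2 to 4, and 3956 to 5160 genes passed. With 1 library left out the slope ran from −0.0037 to 0.0289 for Msh3 and from −0.116 to 0.0419 for Lig1, so the sign of either is not settled, and Msh6 passed without m74 (edgeR adjusted p = 0.0490). No alternative brought a repair gene past the threshold along the dividing-cell score, the myelin score or the Rarb level.

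The background counts moved more. Along the dividing-cell score 26 genes passed, 79 by DESeq2's Wald test, and 9 (without m57) to 32 with a library left out. Along the myelin score 40 passed, 9 on unscaled totals, 307 by DESeq2's Wald test, 0 with the library code term, and 4 (without m83) to 67 (without m74) with a library left out. Along the Rarb level 3 passed, 0 on unscaled totals, 0 with no filter, 175 by DESeq2's Wald test, 587 with the library code term, 40 with the transcript length term, and 0 to 6 with a library left out. The cause was not tested. By the longest transcript, 1 of 8 genes kept its rank in level per length. No paired analysis was possible because the labels put no library in a group. Depth limits Fan1 and Pms1 most, with as few as 44 and 57 reads in m61.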
